A study of Mus musculus with 11 samples.

Results

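The 10 genes described here encode the leukocyte and matrix integrins Itgam, Itgax, Itgal, Itga4, Itga5, Itga6, Itga9, Itgb1, Itgb2 and Itgb7, taken by symbol from the 37583 genes of the deposited RPKM table, where each symbol matched a single row. All 10 passed the filter on low counts that left 15116 genes for testing. RNA was sequenced from EGFP+ mononuclear phagocytes (macrophages, dendritic cells and monocytes) of CX3CR1 EGFP +/- mice aged 12 weeks, obtained by double sorting from the epididymis, the duct in which sperm mature and are stored. The 3 groups were the initial segments (IS, 4 libraries) at the start of the duct, the caput/corpus (3 libraries) and the cauda at its end (4 libraries), with 4 epididymides behind each library. All groups carry the EGFP allele at Cx3cr1, which encodes the fractalkine receptor, so the sort was for cells in which that gene is active. Transcripts that mark epithelium and mast cells were also read, as given below. The labels do not say which animals each library came from, so the spread between libraries, and every p-value built on it, may be partly technical. In pooled sorted cells a lower level can come from fewer cells of a type or from less RNA per cell, and these cannot be told apart.

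Integrins are surface receptors built from an alpha and a beta chain, and the pairing sets which ligand is bound. Chains of the beta 2 family (Itgb2 with Itgal, Itgam or Itgax) are restricted to leukocytes and bind intercellular adhesion molecules and complement fragments. Alpha 4 pairs with beta 1 or beta 7 and binds VCAM-1, fibronectin and, as the beta 7 dimer, MAdCAM-1. Alpha 5, alpha 6 and alpha 9 pair mainly with beta 1 and recognise fibronectin, laminins, and a set that includes tenascin C, osteopontin and VCAM-1. In the epididymis, mononuclear phagocytes line the base of the epithelium and send projections between its cells.

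Levels are RPKM, reads scaled by gene length and library size, as deposited. Comparisons between genes are approximate, since the series of library titles (Maj3 and Maj4) differed more in some genes than in others, as given below. Reads on genes ranged between 16873180 and 31737132 per library. Cauda replicate 1 stood apart, with 13434 genes with a read against 17053 to 18837 in the other 10 libraries. The deposited count file and the table column held different reads for 3 libraries (the second of IS and the first of both other regions), and the table's columns are used here. Summed macrophage markers (8 genes, C1qa the highest) ranged from 4572 to 5884 RPKM in IS, from 3230 to 5108 RPKM in caput/corpus and from 2661 to 3410 RPKM in cauda libraries. Lymphocyte markers summed to 0.677 to 60.1 RPKM across the 11 libraries, and the summed neutrophil markers did not exceed 1.20 RPKM in any of them.

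Differences between regions fell on a few chains. Calls are genes with an adjusted p under 0.05 (edgeR quasi-likelihood test, Benjamini-Hochberg over the 15116 genes tested). Between IS and caput/corpus, 3 of the 10 genes were called, against 3.78% of all genes tested. Itga6 and Itga9 were higher in IS and Itgb7 was lower, where 0.794% of all genes tested were called higher and 2.98% lower. Between IS and cauda, 5 of the 10 were called, against 16.5% of all genes tested. Itga6 and Itga9 were again higher in IS, and Itgb7, Itgb2 and Itga4 were lower, where 7.4% of all genes tested were called higher and 9.06% lower. Between caput/corpus and cauda 0 of 10 were called by edgeR, where 0.615% of all genes tested were (0.582% higher and 0.0331% lower in caput/corpus). An unadjusted p under 0.05 was reached there by 4 of 10, and by 1772 of the 15116 genes tested. DESeq2 called 1 of the 10 (Itga4) in this comparison. The same 3 and 5 genes were called without cauda replicate 1, and the counts were 3, 5 and 0 in the 8 libraries whose count file and column agree. When the count files were taken as filed, edgeR called 0 of 10 in each comparison. An unadjusted p under 0.05 was then reached by 2 for IS over caput/corpus, 4 for IS over cauda and 0 for the remaining one. Over all genes it was reached by 1166, 3098 and 992. As filed, the caput/corpus group holds the reads of column IS replicate 2, and the cauda group those of column caput/corpus replicate 1. The median log2 fold change of the 10 was -0.08 for IS over caput/corpus and -0.09 for IS over cauda, beside 0.02 and 0.05 over all genes tested.

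**Figure D1:**
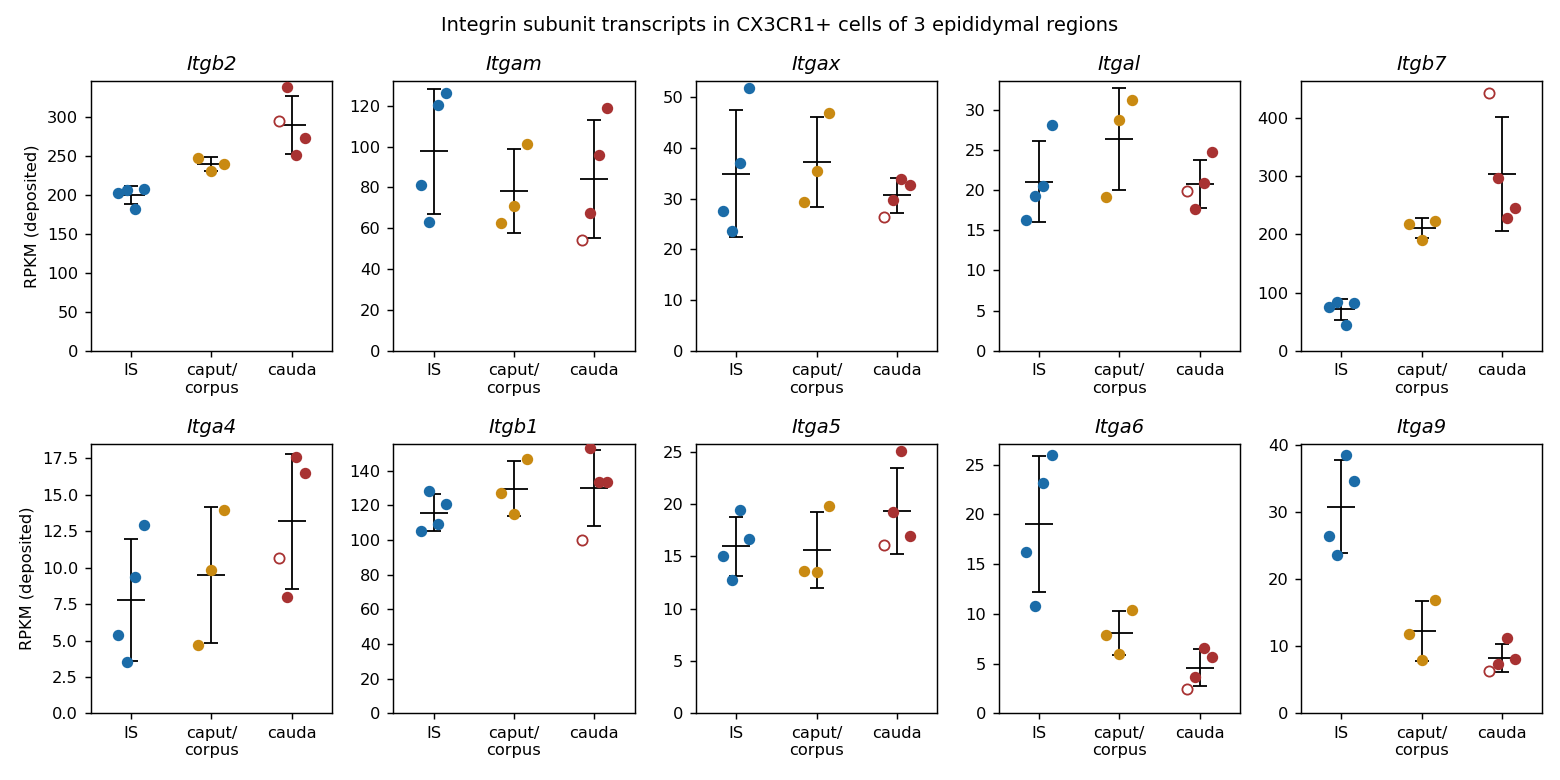
Deposited RPKM of the 10 integrin genes, with 1 point per library, horizontal bars at the mean and whiskers of 1 SD, for 4 IS, 3 caput/corpus and 4 cauda libraries, and an axis of its own for each gene. The open circle is cauda replicate 1. Itga6 and Itga9 lie higher in all 4 IS libraries than in any other library, and Itgb7 lies lower there.

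The beta 2 chain Itgb2 (CD18, ENSMUSG00000000290), the common partner of the leukocyte integrins, was lower in IS than in cauda. It had 202, 206, 182 and 207 RPKM in the 4 IS libraries, 247, 230.5 and 239 RPKM in the 3 caput/corpus libraries, and 295, 338, 251 and 273 RPKM in the 4 cauda libraries. The 3 ranges did not overlap one another, each region lying below the next along the duct, as was the case for 14.3% of all genes tested for IS and caput/corpus, for 18.5% with IS set against cauda and for 9.57% with caput/corpus set against cauda. The log2 fold change was -0.54 ± 0.09 (SE) for IS over cauda (edgeR adjusted p = 0.00271). For IS over caput/corpus it was -0.29 ± 0.10 (edgeR adjusted p = 0.15) and for caput/corpus over cauda -0.24 ± 0.10 (edgeR adjusted p = 0.355), neither of which passed the edgeR test, while DESeq2 called IS over caput/corpus (log2 fold change -0.26, DESeq2 adjusted p = 0.0465).

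The 3 alpha partners of Itgb2 among the 10 were not called in any comparison. Itgam (CD11b, alpha M of complement receptor 3, ENSMUSG00000030786) had 81.0, 62.9, 120.6 and 126 RPKM in IS, 62.3, 71.1 and 101 RPKM in caput/corpus, and 54.4, 67.4, 95.9 and 119 RPKM in cauda libraries. The regions overlapped over most of their range, and the spread within a region was wider than the distance between the region means of 97.7 ± 30.7, 78.2 ± 20.4 and 84.1 ± 28.8 RPKM (SD, n = 4, 3 and 4). The log2 fold change of Itgam was 0.39 ± 0.16 (SE) for IS over caput/corpus and 0.21 ± 0.15 for IS over cauda, with edgeR adjusted p values of 0.264 and 0.375.

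Itgax (CD11c, alpha X of complement receptor 4, widely used as a dendritic cell marker, ENSMUSG00000030789) had 27.5, 23.5, 37.0 and 51.7 RPKM in IS, 29.4, 35.4 and 46.8 RPKM in caput/corpus, and 26.3, 29.7, 33.9 and 32.6 RPKM in cauda libraries. All 4 cauda values lay inside the IS range. The log2 fold change of Itgax was 0.14 ± 0.16 (SE) for IS over cauda (edgeR adjusted p = 0.617). Itgal (CD11a, alpha L of LFA-1, ENSMUSG00000030830) had 16.3, 19.2, 20.5 and 28.1 RPKM in IS, 19.1, 28.7 and 31.2 RPKM in caput/corpus, and 19.8, 17.7, 20.8 and 24.8 RPKM in cauda libraries. Its IS and cauda means were 21.0 ± 5.05 and 20.8 ± 2.99 RPKM (SD, n = 4 each), and its log2 fold change of -0.00 ± 0.13 (SE) was the smallest of the 30 computed here (edgeR adjusted p = 0.991). The 3 alpha L, M and X genes lie on chromosome 7, Itgam and Itgax side by side with 0 protein-coding genes between them.

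Itgb7 (beta 7, partner of alpha 4 in the MAdCAM-1 receptor and of alpha E in the E-cadherin receptor, ENSMUSG00000001281) was lower in IS than in both other regions. It had 74.6, 83.0, 45.0 and 82.0 RPKM in IS libraries, 218, 191 and 223 RPKM in caput/corpus libraries, and 444, 297, 228 and 245 RPKM in cauda libraries. Every IS library lay below every other library, and every caput/corpus library lay below every cauda library, although caput/corpus replicate 3 (223 RPKM) and cauda replicate 3 (228 RPKM) lay close together. The log2 fold change was -1.65 ± 0.22 (SE) for IS over caput/corpus (edgeR adjusted p = 0.00428) and -2.08 ± 0.21 for IS over cauda (edgeR adjusted p = 0.000196). For caput/corpus over cauda it was -0.43 ± 0.22 (edgeR adjusted p = 0.506), which did not pass. Cauda replicate 1 held the highest value, and without it the cauda mean was 257 RPKM in place of 303 RPKM.

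Summed markers of dendritic cells, monocytes and mast cells were, as Itgb7 was, lower in IS than in both other regions. Summed conventional dendritic cell markers (8 genes, none at 0 in any region) ranged from 188.5 to 381 RPKM in IS, from 833 to 1160 RPKM in caput/corpus and from 756 to 1639 RPKM in cauda libraries. Summed monocyte markers (8 genes, none at 0) ranged from 277 to 547 RPKM in IS, 916 to 1499 RPKM in caput/corpus and 1512 to 2085 RPKM in cauda. Summed mast cell markers (8 genes, none at 0) ranged from 26.1 to 99.2 RPKM in IS, 615 to 883 RPKM in caput/corpus and 879 to 3450 RPKM in cauda. For IS over caput/corpus 5 dendritic cell, 6 monocyte and 7 mast cell markers were called lower, against 2.98% of all genes tested. For IS over cauda 6, 8 and 8 were called lower, against 9.06%. The dendritic cell markers Clec9a and Ccr7 were called in neither comparison. The dendritic cell sum was lowest in IS replicate 3 and highest in cauda replicate 1, the libraries with the lowest and the highest Itgb7. Between these extremes the orders differed. Cauda replicate 3 had a lower dendritic cell sum (756 RPKM) than any caput/corpus library, yet a higher Itgb7. Cd209a was the largest part of the dendritic cell sum, averaging 212 RPKM in IS, 705 RPKM in caput/corpus and 812 RPKM in cauda. The mast cell sum was highest in cauda replicate 2, whose Itgb7 of 297 RPKM was below that of cauda replicate 1. The part of these cell types in the Itgb7, Itgb2 and Itga4 differences was not tested.

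Itga4 (alpha 4 of VLA-4, which binds VCAM-1, ENSMUSG00000027009) was lower in IS than in cauda. It had 5.35, 3.54, 9.37 and 12.9 RPKM in IS, 4.70, 9.86 and 14.0 RPKM in caput/corpus, and 10.7, 7.96, 17.6 and 16.5 RPKM in cauda libraries. The IS and cauda ranges overlapped, and the call came within the title series Maj3 and Maj4, into which the library titles fall: the mean was 4.45 RPKM in IS and 9.31 RPKM in cauda in Maj3, and 11.1 RPKM in IS and 17.0 RPKM in cauda in Maj4. With series as a term in the fit, the log2 fold change was -0.85 ± 0.19 (SE) for IS over cauda (edgeR adjusted p = 0.0142). Without the series term Itga4 was not called (edgeR adjusted p = 0.344), nor was it in either series alone (edgeR adjusted p = 0.275 in Maj3 and 0.165 in Maj4). For IS over caput/corpus the log2 fold change was -0.12 ± 0.21 (edgeR adjusted p = 0.912), and for caput/corpus over cauda it was -0.73 ± 0.22 (edgeR adjusted p = 0.204).

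Itgb1 (beta 1, the partner of most matrix-binding alpha chains, ENSMUSG00000025809) was the most even of the 10 across libraries. It had 105, 128, 109 and 121 RPKM in IS, 127, 115 and 147 RPKM in caput/corpus, and 100.05, 153, 134 and 133 RPKM in cauda libraries, a 1.53-fold range over all 11. Its log2 fold change was -0.17 ± 0.14 (SE) for IS over cauda (edgeR adjusted p = 0.453) and -0.16 for IS over caput/corpus (edgeR adjusted p = 0.749). Itga5 (alpha 5 of the fibronectin receptor, ENSMUSG00000000555) had 15.02, 12.8, 19.4 and 16.6 RPKM in IS, 13.6, 13.5 and 19.8 RPKM in caput/corpus, and 16.1, 19.3, 25.1 and 16.9 RPKM in cauda libraries. The Itga5 ranges overlapped in all 3 comparisons, with a log2 fold change of -0.29 ± 0.16 (SE) for IS over cauda (edgeR adjusted p = 0.268).

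Itga9 (alpha 9, a receptor chain for tenascin C, osteopontin and VCAM-1, ENSMUSG00000039115) was higher in IS than in either other region. It had 26.4, 23.6, 38.5 and 34.6 RPKM in IS libraries, 11.8, 7.99 and 17.0 RPKM in caput/corpus libraries, and 6.27, 7.35, 11.2 and 8.16 RPKM in cauda libraries. The lowest IS library exceeded the highest library of the other regions, while caput/corpus and cauda overlapped. The log2 fold change was 1.36 ± 0.24 (SE) for IS over caput/corpus (edgeR adjusted p = 0.0123), 1.89 ± 0.22 for IS over cauda (edgeR adjusted p = 0.000393) and 0.53 ± 0.23 for caput/corpus over cauda (edgeR adjusted p = 0.4). Without caput/corpus replicate 2, the library with the lowest Itga9 of its region, the last of these was called (log2 fold change 0.81, edgeR adjusted p = 0.0413).

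Itga6 (alpha 6, a laminin receptor chain, ENSMUSG00000027111) followed the same order of regions. It had 16.2, 10.8, 23.2 and 25.9 RPKM in IS libraries, 7.90, 5.94 and 10.4 RPKM in caput/corpus libraries, and 2.45, 3.68, 6.62 and 5.63 RPKM in cauda libraries. Every IS library lay above every other library, IS replicate 2 (10.8 RPKM) only just above caput/corpus replicate 3 (10.4 RPKM). The log2 fold change was 2.06 ± 0.25 (SE) for IS over cauda (edgeR adjusted p = 0.000516) and 1.25 ± 0.27 for IS over caput/corpus (edgeR adjusted p = 0.0319). The call between IS and caput/corpus was held in 4 of the 11 fits that left out a library and was lost on leaving out any of IS replicates 1, 3 and 4, any of caput/corpus replicates 2 and 3, or any of cauda replicates 2 and 4, with an adjusted p of up to 0.108 and the direction kept. It was also lost without the series term (edgeR adjusted p = 0.199) and with the replicate number as a block (log2 fold change 1.32, edgeR adjusted p = 0.068). For caput/corpus over cauda the log2 fold change was 0.81 ± 0.26 (edgeR adjusted p = 0.251).

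Summed epididymal epithelium markers (8 genes, none at 0 in any region) moved with both alpha chains. They ranged from 861 to 2094 RPKM in IS, 197 to 359 RPKM in caput/corpus and 1.51 to 2.35 RPKM in cauda libraries. Gpx5 was the highest of them in IS (mean 478 RPKM). Between IS and caput/corpus, 5 of the 8 were called higher in IS and 1 lower, against 0.794% and 2.98% of all genes tested. All 8 were called higher in IS than in cauda, against 7.4%. Itga6 is also the alpha chain of epithelial hemidesmosomes, where it pairs with beta 4. Within IS, the epithelial sum was highest in replicate 2 (2094 RPKM), which had the lowest Itga6 (10.8 RPKM) and Itga9 (23.6 RPKM), and lowest in replicate 4 (861 RPKM), which had the highest Itga6 (25.9 RPKM). Itgb4, the partner in hemidesmosomes, averaged 0.471 ± 0.326 RPKM in IS, 1.01 ± 1.19 RPKM in caput/corpus and 0.0452 ± 0.0603 RPKM in cauda (SD, n = 4, 3 and 4). Across regions the summed macrophage markers given above moved the same way. Of these 8, 7 were called higher in IS than in cauda, as were 7.4% of all genes tested. Between IS and caput/corpus 2 of the 8 were called higher in IS, against 0.794%, and the ranges of the sums overlapped. Within IS the macrophage sum was also highest in replicate 2 (5884 RPKM) and lowest in replicate 4 (4572 RPKM). Replicate 2 belongs to Maj3 and replicate 4 to Maj4. In IS the Maj4 mean was 1.82-fold that of Maj3 for Itga6 and 1.46-fold for Itga9. The contrast of these libraries cannot be told apart from that of the series. The part of either cell type in the Itga6 and Itga9 differences was not tested.

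Promoters are printed for the called genes that had an entry, since these differed between regions. RefSeq (GRCm38.p6) gave an entry for 7 of the 10 genes. The 250 bases before the start of Itga9 lie at chr9:118711442-118711691 on the plus strand, those of Itgb7 at chr15:102231936-102232185 on the minus strand, and those of Itga4 at chr2:79255176-79255425 on the plus strand. Capitals mark matches to 1 of 7 motifs searched on both strands.
Itga9: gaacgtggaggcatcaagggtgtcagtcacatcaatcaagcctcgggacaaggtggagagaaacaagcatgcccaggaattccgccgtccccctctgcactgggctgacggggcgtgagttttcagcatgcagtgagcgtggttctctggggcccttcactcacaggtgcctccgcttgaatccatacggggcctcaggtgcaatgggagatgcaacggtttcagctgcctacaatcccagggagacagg
Itgb7: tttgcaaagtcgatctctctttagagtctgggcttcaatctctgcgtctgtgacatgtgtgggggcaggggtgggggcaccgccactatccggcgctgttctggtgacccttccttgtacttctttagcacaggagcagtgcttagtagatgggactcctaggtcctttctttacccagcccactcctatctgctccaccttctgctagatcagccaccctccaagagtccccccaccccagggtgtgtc
Itga4: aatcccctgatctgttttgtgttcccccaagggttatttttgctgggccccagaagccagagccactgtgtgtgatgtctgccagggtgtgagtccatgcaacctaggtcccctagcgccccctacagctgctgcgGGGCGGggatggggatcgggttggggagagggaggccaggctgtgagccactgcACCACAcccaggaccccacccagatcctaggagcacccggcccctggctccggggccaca
The motifs were a PU.1 site (GAGGAAGT, in 2.44% of 32851 promoters of the same length), a GC box (GGGCGG, 32.7%), AP-1 (TGANTCA, 6.75%), RUNX (TGTGGT, 14.0%), a SMAD palindrome (GTCTAGAC, 0.167%), CCAAT (33.8%) and an ETS-IRF composite element (2.30%). In Itga4 the GC box begins at -114 and the RUNX letters, on the minus strand, at -60 from the start. None of these letters was in the windows of Itga9 and Itgb7. Of the genes not printed, Itgam, Itgb1 and Itga5 held a GC box, and Itgax held AP-1 letters at -56 and CCAAT letters at -178. These matches describe the letters of the windows and identify no bound site.

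**Figure D2:**
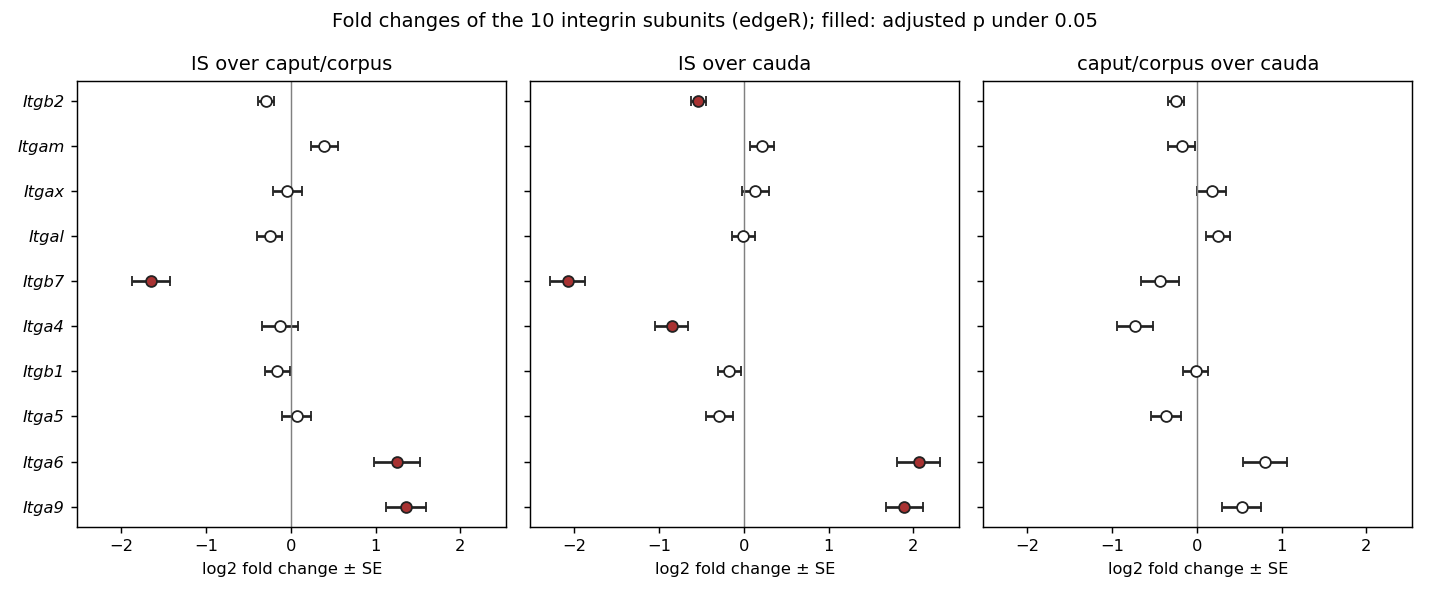
Log2 fold change with 1 SE from the edgeR fit for the 10 genes (rows) in the 3 comparisons (panels), IS over caput/corpus, IS over cauda and caput/corpus over cauda. Filled points have an adjusted p under 0.05: 3 genes in the first panel, 5 in the second and 0 in the third.

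The order of levels differed between regions, with Itgb7 moving up along the duct and Itga9 and Itga6 moving down. In IS the order of mean levels was Itgb2, Itgb1, Itgam, Itgb7, Itgax, Itga9, Itgal, Itga6, Itga5 and Itga4, running down to 7.79 ± 4.19 RPKM for Itga4 (SD, n = 4), and only the first step, between Itgb2 and Itgb1, was free of overlap. In caput/corpus Itgb7 moved to the second place, with no overlap at any step down to Itgax, and Itga6 was last at 8.07 ± 2.22 RPKM (SD, n = 3). In cauda the first place was shared: Itgb7 averaged 303 RPKM and Itgb2 289 RPKM, but Itgb7 was the higher of them in only 1 of the 4 libraries, cauda replicate 1. From Itgal downwards the range of each chain overlapped the next in cauda, yet within a library Itga5 lay above Itga4, Itga4 above Itga9 and Itga9 above Itga6 in 4 of 4 libraries, and Itgal above Itga5 in 2 of 4.

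As a share of the RPKM of the 3 beta chains, Itgb7 made up 18.2% ± 3.21 in IS, 36.3% ± 0.668 in caput/corpus and 41.4% ± 7.71 in cauda (SD over 4, 3 and 4 libraries). Itgb1 made up 30.1% ± 2.06 in IS, 22.3% ± 1.51 in caput/corpus and 18.4% ± 4.43 in cauda. The ratio of Itgb7 to Itgb1 was below 1 in all 4 IS libraries (0.413 to 0.708) and above 1 in all 3 caput/corpus (1.52 to 1.71) and all 4 cauda libraries (1.71 to 4.44). Among the 7 alpha chains, Itgam held the largest mean share in each region, 42.7% ± 1.92 in IS, 41.7% ± 0.478 in caput/corpus and 45.7% ± 5.50 in cauda. Itga9 held 13.8% ± 1.47 of the alpha total in IS, 6.53% ± 1.70 in caput/corpus and 4.59% ± 0.689 in cauda. Itga4 held 3.24% ± 0.898 in IS, 4.89% ± 1.51 in caput/corpus and 7.19% ± 1.38 in cauda. These chains share the ligand VCAM-1, and the ratio of Itga4 to Itga9 was between 0.150 and 0.373 in IS, between 0.399 and 1.23 in caput/corpus, above 1 in 1 of 3 libraries, and between 1.08 and 2.02 in cauda, above 1 in 4 of 4. The ratio of Itgam to Itgb2 had a median of 0.505 in IS, 0.308 in caput/corpus and 0.291 in cauda, with overlapping ranges. In caput/corpus the lowest ratio of Itga4 to Itga9 (0.399) was that of its lone Maj3 library. No test was run on shares or ratios.

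**Figure D3:**
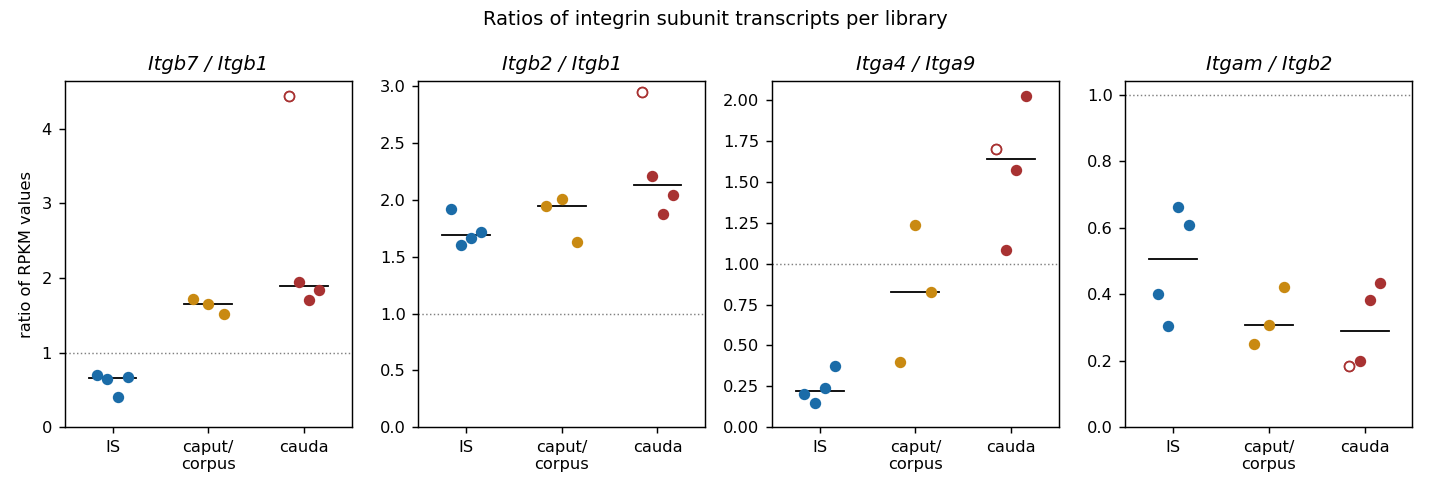
Ratios of RPKM between pairs of integrin genes, with 1 point per library, a bar at the median of each region (4 IS, 3 caput/corpus and 4 cauda libraries), and a dotted line at 1. The open circle is cauda replicate 1. Itgb7 over Itgb1 lies below 1 in all 4 IS libraries and above 1 in the other 7, and Itga4 over Itga9 lies above 1 in all 4 cauda libraries.

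The 11 libraries also differed by title series, for the alpha chains above all. All 7 alpha chains had a higher mean in Maj4 than in Maj3 in each of the 3 regions, as did 27.8% of all genes tested, while Itgb2 and Itgb7 did in 0 regions and Itgb1 in 2. The Maj4 mean of Itga4 was 2.51-fold that of Maj3 in IS, 2.54-fold in caput/corpus and 1.83-fold in cauda. For Itgam the same ratio was 1.72 in IS, 1.38 in caput/corpus and 1.76 in cauda. Caput/corpus holds a single Maj3 library, so its ratio rests on that library. Itga4 also has the longest gene of the 10 in the table (14127 bases) and Itgb7 the shortest (2727 bases). In the Maj4 count files 12.5% to 14.7% of reads were not uniquely aligned, against 27.6% to 28.5% in the 4 Maj3 files that equal a column, and the part of this in the series difference was not tested. Within each series the called genes kept their direction between IS and cauda. In Maj4 and in Maj3 alone the log2 fold changes of IS over cauda were 1.92 and 1.92 for Itga9, 2.01 and 2.19 for Itga6, -1.89 and -2.18 for Itgb7, and -0.43 and -0.58 for Itgb2. With 2 libraries a region, edgeR called Itga9, Itga6 and Itgb7 in Maj4 alone and 0 of 10 genes in Maj3 alone, where 5 had an unadjusted p under 0.05. Between IS and caput/corpus the values in Maj4 alone were 1.54 for Itga9 (edgeR adjusted p = 0.0614), 1.58 for Itga6 (edgeR adjusted p = 0.0315) and -1.71 for Itgb7 (edgeR adjusted p = 0.0262). The range over all 11 libraries was 10.6-fold for Itga6, 9.85-fold for Itgb7, 6.15-fold for Itga9 and 4.97-fold for Itga4, and between 1.53-fold and 2.32-fold for the other 6.

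By the size of the mean deviation over all 11 libraries, the genes closest to Itgb7 were Napsa, an aspartic protease, and Clec10a, a C-type lectin on the dendritic cell marker list used here. Their log2(RPKM + 1) differed from that of Itgb7, after centring, by a root mean square of 0.146 and 0.166, where Itgb7 itself varied by 0.968, and 16 genes lay within 0.25. Napsa averaged 65.5 ± 17.5 RPKM in IS, 197 ± 23.8 RPKM in caput/corpus and 285 ± 110 RPKM in cauda (SD, n = 4, 3 and 4). The closest to Itga9 were Slc7a8, an amino acid transporter (0.193), and Itga6 itself (0.228), and the closest to Itga6 were Tgfbr1, a TGF-beta receptor (0.213), and Ttc28 (0.226). Tgfbr1 averaged 94.8 ± 32.4 RPKM in IS, 42.8 ± 8.81 RPKM in caput/corpus and 25.4 ± 12.8 RPKM in cauda. Itgb2 varied by only 0.249, so 1448 genes lay within 0.25 of it, Hnrnpab (0.0748) and Anp32b (0.0868) the closest.

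Among the 17 other integrin genes, 14 were tested. For IS over cauda 3 were called (2 higher and 1 lower in IS), where 16.5% of all genes tested were. For IS over caput/corpus 1 of these was called, where 3.78% of all genes tested were. Itgb5 (beta 5, partner of alpha V in a vitronectin receptor) was higher in IS, with 165 ± 20.4 RPKM in IS, 74.5 ± 40.7 RPKM in caput/corpus and 30.1 ± 7.10 RPKM in cauda (SD, n = 4, 3 and 4), a log2 fold change of 2.44 ± 0.27 (SE) for IS over cauda (edgeR adjusted p = 0.00032). Its partner Itgav was higher in IS than in cauda by a log2 fold change of 1.01 ± 0.22 (edgeR adjusted p = 0.0105), with 15.3 ± 6.92 RPKM in IS and 7.74 ± 4.13 RPKM in cauda. Itga2b (alpha IIb, best known from platelets) was lower, with 0.176 ± 0.146 RPKM in IS, 1.17 ± 0.642 RPKM in caput/corpus and 3.59 ± 1.16 RPKM in cauda, and was called for IS over caput/corpus (log2 fold change -3.24 ± 0.61, edgeR adjusted p = 0.0171) and IS over cauda (-4.57 ± 0.59, edgeR adjusted p = 0.000666). The first of these Itga2b calls was lost without IS replicate 3 or 4. Itgae, the alpha E partner of beta 7, averaged 0.849 ± 0.344 RPKM in IS, 0.684 ± 0.369 RPKM in caput/corpus and 0.328 ± 0.399 RPKM in cauda, and was not called. Without cauda replicate 1 the calls in this list numbered 3 in place of 1 for IS over caput/corpus and 5 in place of 3 for IS over cauda. Those over all genes numbered 1353 in place of 571 and 3124 in place of 2488. The list's median log2 fold change for IS over cauda was 1.24, beside 0.05 for all genes tested, but 6 of the 7 genes above that median were not called and 6 averaged under 0.5 RPKM in cauda.

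Of 24 genes for integrin ligands, 20 were tested. Vcam1, the counter-receptor of alpha 4 and alpha 9, had 41.4 ± 8.99 RPKM in IS, 13.5 ± 4.42 RPKM in caput/corpus and 2.71 ± 1.57 RPKM in cauda (SD, n = 4, 3 and 4), a log2 fold change of 3.99 ± 0.48 (SE) for IS over cauda (edgeR adjusted p = 0.000465). Fn1, fibronectin, was lower in IS than in cauda, with 4.78 ± 4.13 RPKM in IS and 36.6 ± 24.3 RPKM in cauda and a log2 fold change of -3.18 ± 0.38 (edgeR adjusted p = 0.000475). F11r (JAM-A, a ligand of LFA-1) and Icam1 (the ligand of LFA-1 and Mac-1) were higher in IS than in cauda, by log2 fold changes of 2.42 ± 0.32 and 0.80 ± 0.11 (edgeR adjusted p = 0.000744 each). Spp1, osteopontin, was lower in IS than in caput/corpus (8.96 ± 2.76 and 24.0 ± 4.84 RPKM, log2 fold change -1.52 ± 0.21, edgeR adjusted p = 0.00474). In all, 2 of the 20 (Spp1 and Fn1) were called for IS over caput/corpus, both lower, where 3.78% of all genes tested were called. For IS over cauda 3 were higher and 1 lower, where 16.5% of all genes were called. For caput/corpus over cauda 1 (Icam1) was called, higher, where 0.615% of all genes were called. The Fn1 call between IS and caput/corpus (edgeR adjusted p = 0.0442) and the Icam1 call between caput/corpus and cauda (edgeR adjusted p = 0.0382) each held in only 2 of the 11 fits that left out a library. The list's median log2 fold change for IS over cauda was 2.26, beside the 0.05 of all genes tested, but of the 10 ligand genes above that median 8 were not called and 7 averaged under 0.5 RPKM in cauda. It was the same 2.26 with the 1 gene that had 0 cauda reads set to its bound of 3 reads over the group. Without cauda replicate 1 the ligand calls numbered 4, 9 and 2 in the 3 comparisons, in place of 2, 4 and 1. Those over all genes numbered 1353, 3124 and 205, in place of 571, 2488 and 93. Madcam1, the ligand of alpha 4 beta 7, had 0 reads in all 11 libraries, where a count of 0 allows up to 3 reads. The epithelial marker sums given above were also highest in IS, and their part in the Vcam1 and F11r differences was not tested.

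Inside the cell, talin and kindlin activate integrins by binding the beta tail. All 22 genes of the activation list were tested, and 4 were called higher and 4 lower in IS than in cauda. Of all genes tested, 7.4% were called higher and 9.06% lower. Tln2 (talin 2) was higher, with 4.71 ± 0.412 RPKM in IS and 1.47 ± 0.482 RPKM in cauda (SD, n = 4 each) and a log2 fold change of 1.73 ± 0.24 (SE, edgeR adjusted p = 0.000993). Tln1 and Fermt3 (kindlin 3, the leukocyte form) were not called, Fermt3 averaging 223 ± 37.2 RPKM in IS and 202 ± 36.6 RPKM in cauda. Slc3a2 (CD98 heavy chain, which binds beta tails) and Fyb (an adaptor for T cell adhesion) were higher by log2 fold changes of 0.66 and 0.60 (edgeR adjusted p = 0.00894 and 0.0244). Fermt1 (kindlin 1, the epithelial form) had 177 reads over the IS libraries and 2 over the cauda libraries, a ratio of 89.9 with an exact 95% counting interval of 24.5 to 748. Those reads were 6, 141, 27 and 3 in the 4 IS libraries, against 0, 0, 0 and 2 in the 4 cauda libraries, so IS replicate 2, the library with the highest epithelial marker sum, held most of them. Without IS replicate 2, a setting chosen after seeing the data, the Fermt1 ratio was 25.2 (6.49 to 216). Fermt1 was called in 3 of the 11 fits that left out a library, those without IS replicate 1, IS replicate 4 or cauda replicate 4.

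Cd47, an integrin-associated protein, was lower in IS than in both other regions, with 87.3 ± 13.8 RPKM in IS, 135 ± 14.5 RPKM in caput/corpus and 156 ± 32.1 RPKM in cauda (SD, n = 4, 3 and 4). Its log2 fold change was -0.72 for IS over caput/corpus (edgeR adjusted p = 0.00787) and -0.83 ± 0.10 (SE) for IS over cauda (edgeR adjusted p = 0.00059). Cytip, which binds the integrin regulator cytohesin, had a log2 fold change of -1.15 for IS over caput/corpus (edgeR adjusted p = 0.0314) and -1.52 ± 0.24 for IS over cauda (edgeR adjusted p = 0.00179). Flna (filamin A, which competes with talin for the beta tail) and Rasgrp2 (an activator of the GTPase Rap1) were lower in IS than in cauda by -1.08 ± 0.19 and -1.73 ± 0.34 (edgeR adjusted p = 0.00389 and 0.00706). For IS over caput/corpus 2 were called, both lower, where 2.98% of all genes tested were called lower. For caput/corpus over cauda 0 of 22 were called in every one of the 23 alternatives run, DESeq2 included. By edgeR 4 of the 22 had an unadjusted p under 0.05 there, beside 1772 of the 15116 genes tested.

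Downstream, all 25 adhesion signalling genes were tested, and 5 were called higher and 4 lower in IS than in cauda. Of all genes tested, 7.4% were called higher and 9.06% lower. Zyx (zyxin, a focal adhesion adaptor) had 89.7 ± 9.71 RPKM in IS, 183 ± 21.9 RPKM in caput/corpus and 238 ± 29.5 RPKM in cauda (SD, n = 4, 3 and 4), with a log2 fold change of -1.07 ± 0.13 (SE) for IS over caput/corpus and -1.41 ± 0.12 for IS over cauda (edgeR adjusted p = 0.00314 and 8.56e-05). Fgr, a Src-family kinase of myeloid cells, was also called in both, by -1.19 ± 0.22 and -1.28 ± 0.21 (edgeR adjusted p = 0.0176 and 0.00262). Vcl (vinculin) and Vav3 were lower in IS than in cauda by -2.22 ± 0.41 and -0.95 ± 0.24 (edgeR adjusted p = 0.00442 and 0.0222). Parvg (gamma-parvin, the leukocyte parvin) was higher, with 43.5 ± 4.55 RPKM in IS and 21.1 ± 3.63 RPKM in cauda and a log2 fold change of 1.03 ± 0.15 (edgeR adjusted p = 0.00114). Lcp2 (the adaptor SLP-76), Lyn (a Src-family kinase) and Ptk2b (the focal adhesion kinase relative PYK2) were higher in IS by 0.49, 0.29 and 0.41 (edgeR adjusted p = 0.0255, 0.0258 and 0.0306). For IS over caput/corpus 2 were called, both lower (5 called without cauda replicate 1), where 2.98% of all genes tested were called lower. For caput/corpus over cauda 0 of 25 were called in any of the 23 alternatives. By edgeR 6 of the 25 had an unadjusted p under 0.05 there, beside 1772 of the 15116 genes tested. The IS against cauda calls of Fyb, Fermt1, Vav3, Lcp2, Lyn and Ptk2b, and the IS against caput/corpus calls of Cytip and Fgr, were each lost in 4 or more of the 11 fits that left out a library, with the direction kept. The median log2 fold change of both lists for IS over cauda, -0.16 for activation and -0.02 for signalling, stood beside 0.05 for all genes tested.

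**Figure D4:**
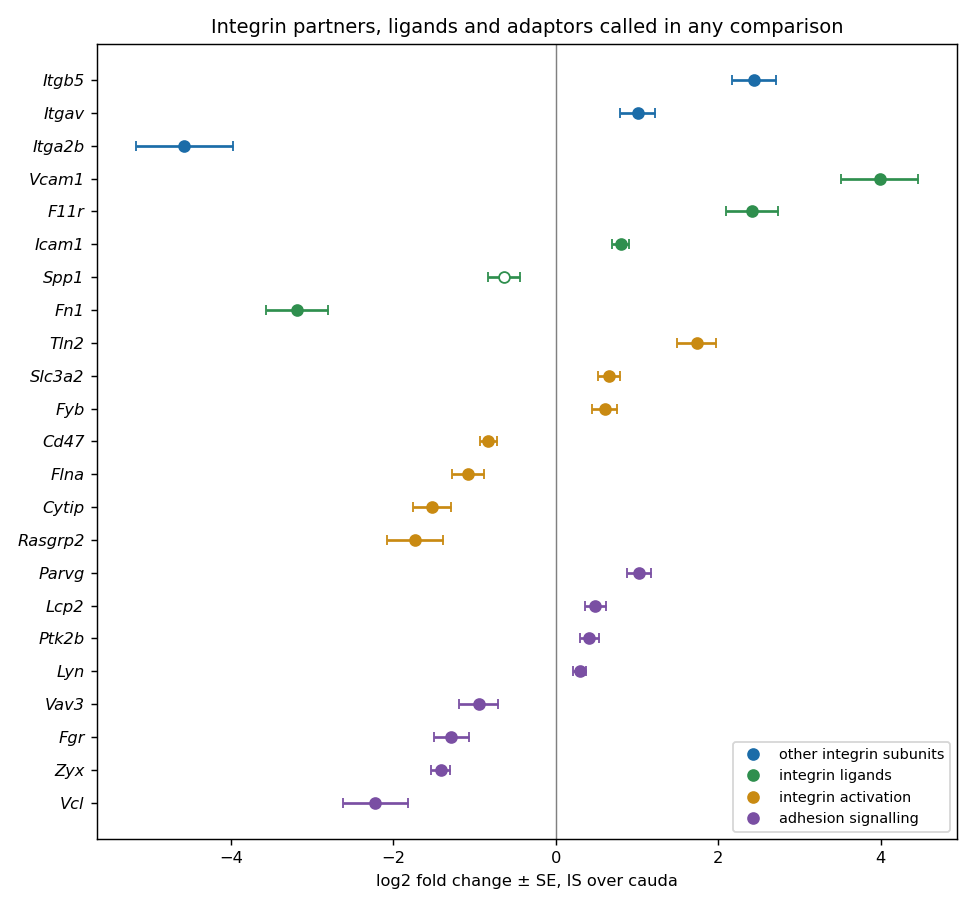
Log2 fold change of IS over cauda with 1 SE from the edgeR fit for genes of 4 lists (other integrin subunits, ligands, activation, signalling) called in any comparison, by list and size. Filled points have an adjusted p under 0.05 for IS over cauda, and Spp1, the open point, was called for IS over caput/corpus. Fermt1, with 2 reads over the cauda libraries, is not drawn.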

How the data were processed

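RNA of 11 libraries was made with the PicoRNA and SMARTer v4 kits and sequenced on a HiSeq2500, per the labels' protocols. STAR, HTSeq and edgeR (no versions) and the build mm9 are named in the submitters' processing notes. The deposited files hold whole counts per gene, with no normalization, and an RPKM table. Every RPKM value times gene length in the table was a whole multiple of a step (tolerance 0.001, all 37583 genes, 11 columns), and these recovered reads were tested. Count file and column agreed for 8 libraries. Of the other 3, the file of IS replicate 2 matched no column, that under caput/corpus replicate 1 equalled column IS replicate 2, that under cauda replicate 1 equalled column caput/corpus replicate 1, and column cauda replicate 1 equalled no file.

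Tests used edgeR 4.0.16 (R 4.3.3): filterByExpr by region, TMM, 1 fit of region plus title series (Maj3, 5 libraries, and Maj4, 6), quasi-likelihood F test, Benjamini-Hochberg over 15116 genes within a comparison, with the SE taken from F. It was tested on simulated counts. DESeq2 1.42.0, limma 3.58.1 on log2(RPKM + 1), and further settings were alternatives. Members and lists were chosen with earlier results of these data known. All 10 members were named, with up to 8 called genes per list by smallest adjusted p and the 2 genes closest to each of 4 members. Intervals cover counting error only.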

Additional observations from a re-analysis of the deposited data

Results flagged for a closer look

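The count file deposited under IS replicate 2 held reads that equal no column of the table. It entered a comparison of regions only with counts as filed, where it stood in the IS group. It held 30383072 reads on genes, of which 20102 were on Itgb2, far above the 3 reads that a count of 0 allows. Itgb7 had 17583 reads there, Itgb1 13538, Itgam 10071, Itga9 2780 and Itga6 1710. By gene length and total reads these were 212 RPKM for Itgb7, 11.9 for Itga9 and 6.26 for Itga6, without the table's library scaling. The IS libraries ranged from 45.0 to 83.0, 23.6 to 38.5 and 10.8 to 25.9 RPKM for these genes. The caput/corpus libraries ranged from 191 to 223, 7.99 to 17.0 and 5.94 to 10.4 RPKM. Itgam was at 52.4 RPKM in the file, and its lowest value in the 11 libraries was 54.4 RPKM (cauda replicate 1). The scaling of these values differs, so their order is not known. No region is assigned to these reads beyond the label under which they were filed. In 20 tests for a library far from the others of its group (10 genes in IS and in cauda, 4 libraries each), 0 were past Dixon's critical value, where chance flags about 1 in 20.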

How the results depend on the processing

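Each of the 30 fold changes was recomputed under 23 alternatives, giving 690 values, of which 627 kept direction and side of the threshold, 29 lost the call, 3 gained it and 31 turned direction with no call on either side. For IS over caput/corpus the 3 calls became 0 in Maj3 alone (its lone caput/corpus library is taken to vary as the rest do) and 0 with counts as filed. For IS over cauda the 5 calls became 3 in Maj4 alone, 0 in Maj3 alone and 0 as filed, with the called genes' directions kept. For caput/corpus over cauda DESeq2 called 1, and it added Itgb2 for IS over caput/corpus. Leaving out each library gave 2 to 3, 5 to 5 and 0 to 1 calls in the 3 comparisons. As filed, the caput/corpus and cauda groups each hold the reads of another region's column, and the IS group holds the unmatched file. The part of this in the lost calls was not tested. With a replicate block of title series and number, 2, 5 and 0 were called, Itga6 for IS over caput/corpus being lost. Same-number libraries within a series correlated at -0.242 to 0.282 after region and series, 2 of 10 pairs over 0.1. Different-number libraries of unlike regions within a series correlated at -0.546 to 0.0768. Removing region and series can lower such correlations, so a bar of 0.1 cannot decide whether same-numbered libraries are pairs. The main fit did not treat them as pairs. Whether they share animals is not given.

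Directions turned for Itgax, IS over caput/corpus, in Maj4 alone (0.101), in the 8 libraries without a conflict (0.0209) and as filed (0.154), with -0.22 to 0.0595 on leaving out each library. Itgax, IS over cauda, was -0.0854 in Maj3 alone and -0.0182 to 0.235 on leaving out each library. For IS over caput/corpus, Itga4 was 0.322 as filed and -0.274 to 0.0468 on leaving out each library, and Itga5 -0.056 to 0.212. Itgal, IS over cauda, was 0.0444 with DESeq2 and with its size factors, 0.00335 with no filter, 0.0100 with no title series, 0.0944 in Maj4 alone, 0.0226 in the 8 libraries, 0.055 with both regions alone, and -0.0973 to 0.0755 on leaving out each library. For caput/corpus over cauda, Itgam was 0.11 in Maj3 alone, and Itgb1 was 0.0090 with DESeq2 size factors and 0.00899 with DESeq2, 0.0821 in Maj3 alone and -0.106 to 0.0886 on leaving out each library.

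Calls over all genes ranged from 0 to 1353 between IS and caput/corpus, 4 to 3595 between IS and cauda and 0 to 632 between caput/corpus and cauda.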
